A study of Rattus norvegicus with 10 samples.

Results

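Cytosolic ribosomal protein genes were examined in the whole mammary gland of SD rats, all female and aged 21 days after birth. The genes were taken from the platform annotation by symbol (Rpl and Rps with a number and at most a short suffix, Rplp0 to Rplp2 and Rpsa), without the Rps6k kinases and the mitochondrial ribosomal proteins. This gave 44 genes on 50 probe sets, out of 10411 genes with a probe set of their own. Of these genes, 30 belong to the large and 14 to the small ribosomal subunit by symbol. Each gene is given by its brightest probe set. The soy rats were exposed, from gestation day 4 until weaning, to soy protein isolate in the purified AIN-93G formula, and the casein rats to casein in that formula. Each diet has 5 arrays, named here by diet and number (soy 147, 149, 155, 157 and 159, and casein 10, 18, 20, 6 and 7). The labels speak of RNA pools with replicate targets made from each, so separate animals per array are not certain, and p-values measure only how far these arrays spread, some of which may be technical. The gland was taken whole, so its fat, lymph node and any attached muscle come with it.

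A ribosome is built of a small subunit, which reads the mRNA, and a large subunit, which joins amino acids. Most of their proteins are needed in equal numbers, and the mRNAs of these proteins are among the most abundant of any cell. In mammals most of these mRNAs begin with a C followed by a run of pyrimidines, the 5′ terminal oligopyrimidine or TOP element, through which mTOR signalling controls their translation together with that of elongation factors. In the mammary gland, ribosome content is known to increase with milk secretion.

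Pyrimidine runs near the annotated starts were a shared feature that the choice by symbol did not use. Of the 44 genes, 37 had an entry in the RefSeq promoter table (build GRCr8). An unbroken run of at least 8 bases that are each C or T, on the sense strand, overlapped the stretch from 20 bases before to 30 bases after the start in 27 of these 37 (73.0%), against 24.3% of all 33469 promoters. The letters CTTTCC lay in the same stretch on the sense strand in 10 of 37 genes (27.0%, against 2.15% of all promoters) and on the other strand in 0 of 37 (2.33% of all), where a run and the 6 letters may overlap. The run held the first base of the annotated transcript in 13 of the 37 (35.1%, against 3.86% of all promoters), ended before it in 9 and began after it in 5. The sequences below are those of some genes named in the results, from 60 bases before the start to 20 after it, with any run in capitals.
Rps23, chr2:23814457-23814536, + strand: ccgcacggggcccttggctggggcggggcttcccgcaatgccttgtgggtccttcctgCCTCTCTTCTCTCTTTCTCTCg
Rps24, chr16:96457-96536, + strand: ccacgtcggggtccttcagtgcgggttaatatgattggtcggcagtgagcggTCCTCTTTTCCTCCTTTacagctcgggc
Rplp0, chr12:46718371-46718450, - strand: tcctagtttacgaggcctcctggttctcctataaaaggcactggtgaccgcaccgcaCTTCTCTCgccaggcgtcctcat
Rpl5, chr14:1995206-1995285, - strand: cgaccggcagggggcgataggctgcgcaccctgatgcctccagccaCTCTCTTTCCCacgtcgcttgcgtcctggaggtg
Rpl13a, chr1:104748894-104748973, - strand: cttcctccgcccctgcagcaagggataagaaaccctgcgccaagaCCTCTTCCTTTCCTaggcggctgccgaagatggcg
Rpl22, chr5:168117901-168117980, + strand: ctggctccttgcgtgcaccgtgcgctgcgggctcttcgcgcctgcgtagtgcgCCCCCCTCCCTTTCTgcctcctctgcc
Rpl3l, chr10:14258386-14258465, + strand: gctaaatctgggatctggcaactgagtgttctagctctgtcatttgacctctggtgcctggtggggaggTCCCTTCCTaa
Rps27l, chr8:76443598-76443677, + strand: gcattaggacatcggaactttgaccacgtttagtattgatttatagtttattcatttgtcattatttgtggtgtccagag
Rpl3l and Rps27l are shown as examples of paralogues whose signals behave apart from the rest. Rps4y2 and Rpl7l1, also with patterns of their own, are not shown, and the run of Rps4y2 held the annotated start. The runs of Rps23, Rps24, Rplp0 and Rpl22 held the annotated start. Those of Rpl5 and Rpl13a ended 4 and 2 bases before it, outside the annotated transcript, that of Rpl3l began at base 10, and Rps27l had no such run in this window. Rpl3, Rpl6, Rpl7l1, Rpl11, Rpl12, Rpl18, Rpl24, Rpl41 and Rps3a, which are not shown, had no such run either.

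Signals were MAS5 values on one scale for all arrays, and log2 signal is used throughout. Probe sets with a mean at or above the 40th percentile, 7.47, were tested. Of the 44 genes, 42 passed this filter, and Rpl30 and Rpl3l, at means of 6.54 and 6.17, did not. The genes sit at the top of the array: 38 of the 42 had means from 12.07 to 13.91, and only Rpl39, Rpl7l1, Rps27l and Rps4y2 were dimmer. In that range of brightness lay 233 other probe sets and 24 probe sets assigned to several ribosomal protein genes or their copies. The 233 include Rack1, a ribosomal protein outside the choice by symbol. Probe sets without a gene name were not screened for ribosomal sequence.

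The arrays did not hold the same mix of tissue. The 15 lymphocyte markers tested, of 16 on the array, averaged 7.08 in soy 149 and 9.66 to 10.39 in the other soy arrays, and 7.27 in casein 6 and 9.84 to 10.20 in the other casein arrays. The T cell receptor component Cd3e stood at 4.10 in soy 149 and 3.67 in casein 6, and the B cell receptor component Cd79b at 4.32 in soy 149 and 3.41 in casein 6, both far below the filter. The 15 muscle markers tested, of 20 on the array, averaged 11.92, 12.85 and 13.33 in soy 147, 149 and 157 and 13.27 in casein 6, against 6.59 and 8.07 in the other soy arrays and 6.65 to 8.12 in the other casein arrays. The 6 luminal epithelial markers tested, of 13 on the array, were low in soy 149, soy 159 and casein 6, at 7.59, 6.65 and 6.67. The 3′ to 5′ ratio of actin, a measure of RNA integrity and labelling, averaged 0.57 ± 0.06 on the log2 scale in soy and 0.46 ± 0.14 in casein (SD, n = 5 each, exact permutation test, two-sided, p = 0.15, adjusted p = 0.18), and that of GAPDH 0.47 ± 0.13 in soy and 0.31 ± 0.18 in casein (exact permutation p = 0.18, adjusted p = 0.18).

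Signals of the ribosomal protein genes shared highs and lows from array to array. Each gene was set against its own mean over the 10 arrays and these deviations were averaged over the 42 tested genes. The averages were 0.01, -0.13, 0.05, 0.37 and 0.14 in soy 147, 149, 155, 157 and 159, and -0.08, -0.04, 0.06, -0.30 and -0.08 in casein 10, 18, 20, 6 and 7. The diets overlapped, since casein 20 lay above soy 147, soy 149 and soy 155. Soy 157 stood at the top and casein 6 at the bottom.

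**Figure D1:**
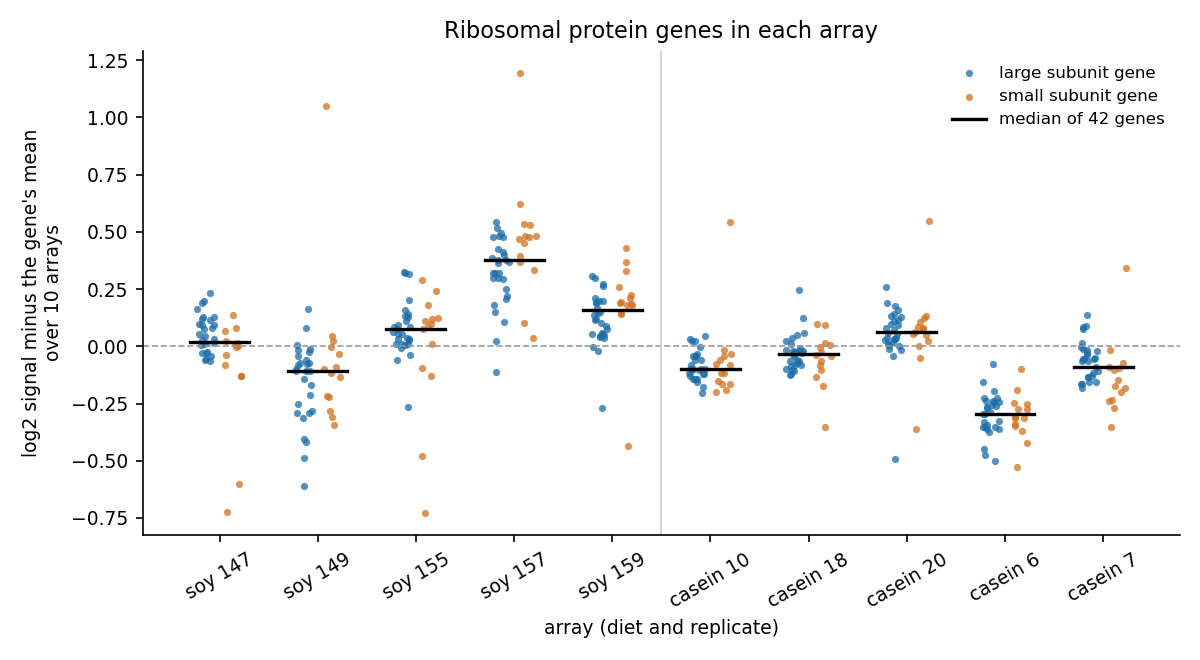
Log2 signal of each of the 42 tested ribosomal protein genes minus the gene's own mean, in the 5 soy arrays (left) and the 5 casein arrays (right), with large subunit genes in blue, small subunit genes in orange and the median as a black line. In casein 6 all 42 genes lie below 0, and in soy 157 all but 1 lie above it.

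These extremes were shared by nearly all genes. Soy 157 was the highest array for 32 of the 42 genes, against 14.5% of all 9520 probe sets tested, and 41 genes stood above their own mean there. Casein 6 was the lowest array for 30 of the 42, against 19.2% of all probe sets, and all 42 genes stood below their own mean there. Soy 149 was lowest for 6 genes, against 17.3% of all probe sets, and 36 genes stood below their mean. The 233 other probe sets of the same brightness had mean deviations of 0.18 in soy 149, 0.12 in soy 157 and -0.06 in casein 6. Soy 157 was the highest array for 31.8% of these 233. Casein 6 was lowest for 19.7% of them and soy 149 for 5.58%. Casein 6 and soy 149 were the arrays with the lowest lymphocyte signal, whose part in the low ribosomal signal was not tested. In bulk tissue, fewer cells of a type and less RNA per cell cannot be told apart. Muscle signal was high in both soy 157, at 13.33, and casein 6, at 13.27, and its part in the ribosomal signal was not tested either.

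**Figure D2:**
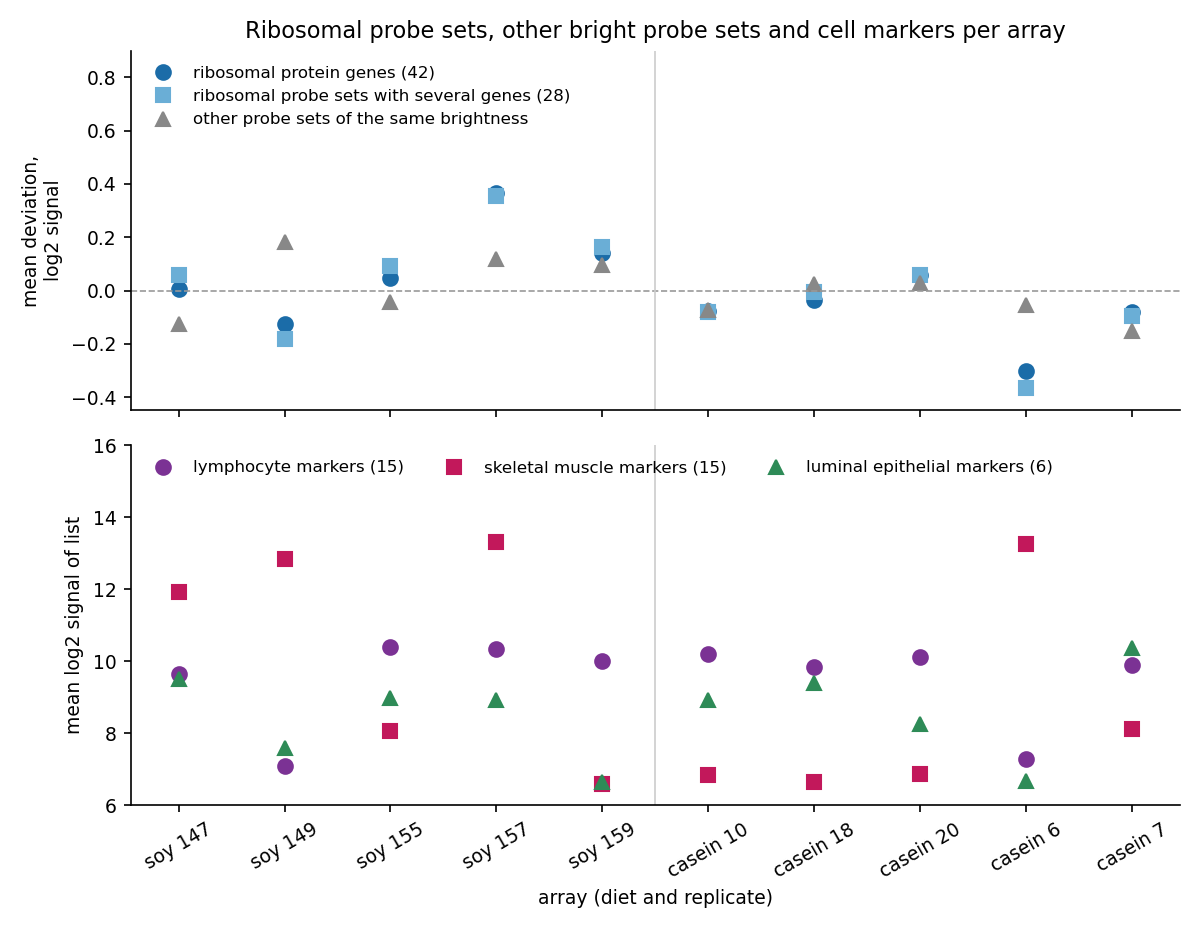
Upper panel, mean deviation in log2 signal of the 42 ribosomal protein genes, of 28 ribosomal probe sets assigned to several genes and of 233 other probe sets of the same brightness, in each array, soy on the left. Lower panel, mean log2 signal of lymphocyte, muscle and luminal epithelial markers in the same arrays. The ribosomal points reach 0.37 in soy 157 and -0.30 in casein 6, and lymphocyte markers are lowest in soy 149 and casein 6.

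The comparison of soy with casein asks how the protein source of the diet affected the gland. For 39 of 42 ribosomal protein genes the difference, soy minus casein, was positive, against 47.3% of all probe sets tested, but no gene passed the test. The median difference was 0.19 log2, a fold of 1.14, beside -0.01 over all probe sets. The genes ran from -0.10 to 0.36. In limma, 0 of 42 genes had an adjusted p under 0.05, as did 0 of the 9520 probe sets (0%), and 0 did without moderation of the variances. At an unadjusted p under 0.05 there were 7 genes, all with higher signal in soy, where 2.31% of all probe sets were called in that direction, 2.24% in the other and 4.55% in either. The diets did not overlap for 0 of 42 genes, against 0.441% of probe sets higher and 0.357% lower in soy, 0.798% in all.

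The size of this shift depended on the scale, on a covariate and on single arrays. The 233 other probe sets of the same brightness also had mostly positive differences, 177 of them, with a median of 0.09. Under quantile normalization, which gives each array the same distribution of signals, the median over the ribosomal protein genes was 0.01, and 26 of 42 genes had a positive difference, since 14 turned negative and 1 positive. When the fit included the actin ratio of each array, the median was 0.13, 0.12 over the large and 0.14 over the small subunit, and 1 gene had an unadjusted p under 0.05, where 4.28% of all probe sets did. Without soy 157 the median was 0.12, and without both casein 6 and soy 157 it was 0.08 with 30 of 42 positive. Without casein 6 and soy 149, the arrays low in lymphocyte signal, it was 0.20. At an unadjusted p under 0.05, 21 genes were called without soy 149, beside 5.86% of all probe sets in that fit. The count was 1 without casein 6 (7.39% of all probe sets), casein 10 (3.57%), soy 157 (3.55%) or soy 159 (4.29%). It was 2 without casein 7 (3.71%) or casein 18 (2.86%), 6 without soy 155 (5%), 9 without casein 20 (4.49%) and 10 without soy 147 (6.11%).

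**Figure D3:**
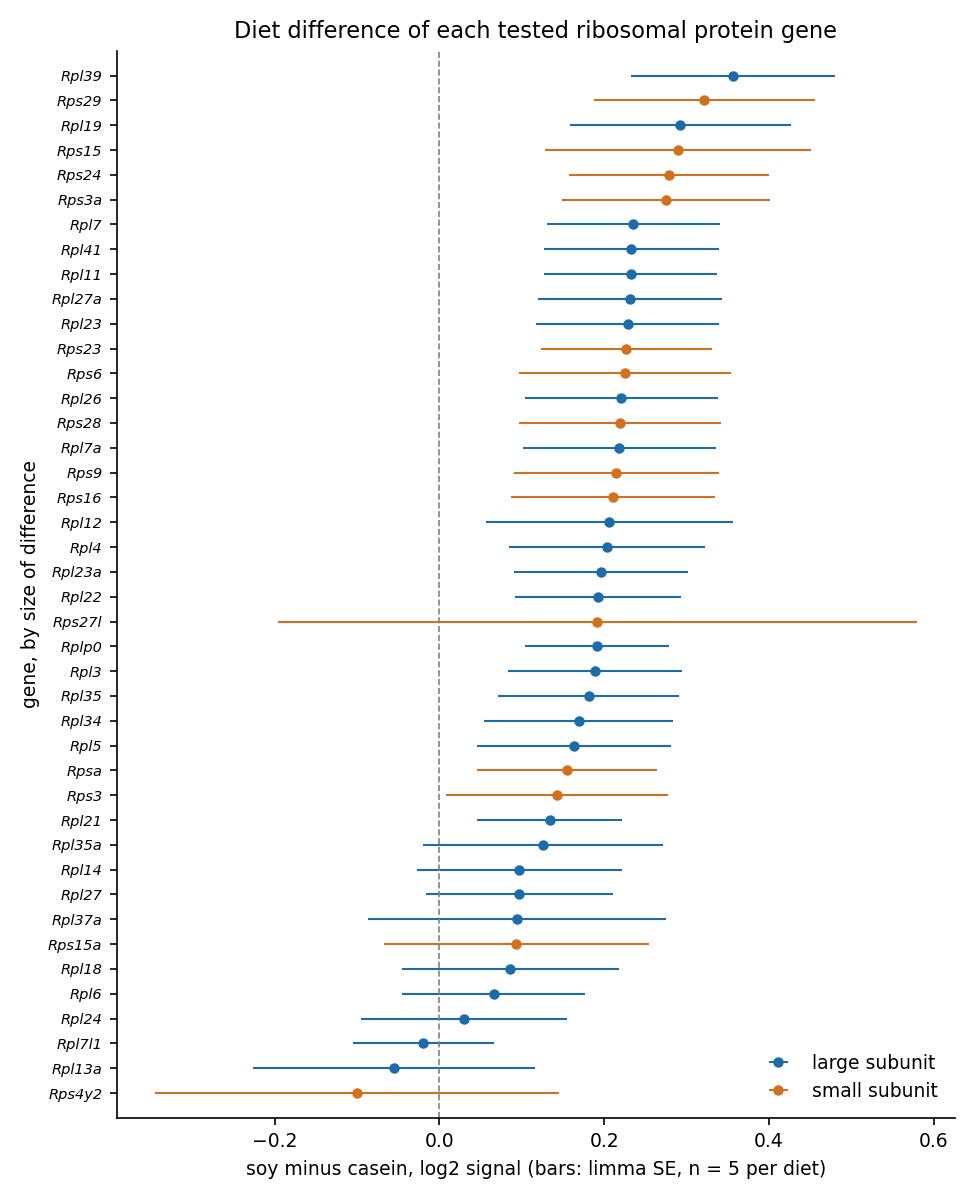
Difference in log2 signal, soy minus casein, of each of the 42 tested ribosomal protein genes, with the limma SE as bars (n = 5 per diet), large subunit in blue and small subunit in orange. The differences run from -0.10 for Rps4y2 to 0.36 for Rpl39, and 39 lie right of 0.

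Among large subunit genes the smallest p belonged to Rpl39, which codes for a very small protein at the exit tunnel for the growing chain. Rpl39 stood at 9.21, 9.19, 9.11, 9.43 and 9.07 in the soy arrays 147, 149, 155, 157 and 159, and at 8.85, 8.90, 8.53, 8.78 and 9.16 in the casein arrays 10, 18, 20, 6 and 7. Casein 7 alone reached into the soy range. The difference was 0.36 ± 0.12 (SE, n = 5 per diet, limma adjusted p = 0.98), and it was 0.28 to 0.44 when any 1 array was left out. Rpl39 did not follow the other genes in detail, since its lowest array was casein 20, and under quantile normalization its difference was 0.37.

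Rpl11 and Rpl5 form a particle with 5S ribosomal RNA and, when ribosome assembly is disturbed, bind Mdm2 and so stabilise the tumour suppressor p53. Rpl11 stood at 13.03, 13.07, 13.23, 13.46 and 13.22 in the soy arrays 147, 149, 155, 157 and 159, and at 12.97, 12.96, 13.18, 12.79 and 12.95 in the casein arrays 10, 18, 20, 6 and 7. Soy 147 and soy 149 lay below casein 20, and the other soy arrays above every casein array. Its difference was 0.23 ± 0.10 (SE, n = 5 per diet, limma adjusted p = 0.98). Rpl5 stood at 13.30, 13.28, 13.37, 13.85 and 13.39 in the same soy arrays, and at 13.25, 13.35, 13.39, 13.09 and 13.29 in the casein arrays. Soy 157 stood far above the other 4 soy arrays, and the Rpl5 difference of 0.16 ± 0.12 (SE, limma adjusted p = 0.98) was 0.06 without it and -0.05 under quantile normalization.

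Rpl7 and Rpl41, the second of which codes for one of the shortest known proteins of the ribosome, had differences of 0.24 ± 0.11 and 0.23 ± 0.11 (SE, n = 5 per diet, limma adjusted p = 0.98 for both). All 5 soy arrays lay above the casein mean for both genes. Rplp0, the base of the stalk that recruits elongation factors and a common reference gene in PCR, averaged 13.19 ± 0.15 in soy and 13.00 ± 0.05 in casein (SD, n = 5 each). Its soy arrays lay within 13.04 to 13.40 and its casein arrays within 12.94 to 13.05, and soy 155 was the only soy array within the casein range. The soy minus casein difference of Rplp0 was 0.19 ± 0.09 (SE, limma adjusted p = 0.98).

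Rpl13a, which in human monocytes also acts in a complex that silences inflammatory mRNAs, was the only bright gene with a negative difference. It stood at 13.05, 12.46, 13.27, 13.16 and 12.68 in the soy arrays 147, 149, 155, 157 and 159, and at 12.85, 13.20, 13.21, 12.61 and 13.04 in the casein arrays 10, 18, 20, 6 and 7. Soy 149 and casein 6 were lowest in their diets, and soy 159 was low as well. The difference of -0.05 ± 0.17 (SE, limma adjusted p = 0.999) was 0.06 without soy 149. Rpl37a, a zinc-binding protein, was low in those 2 arrays. Its signal was 12.65 in soy 149 and 13.27 to 13.59 in the rest of the soy arrays, and 12.82 in casein 6 and 13.25 to 13.41 in the rest of the casein arrays.

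Among small subunit genes Rps29 and Rps24, both mutated in human Diamond-Blackfan anaemia, had the smallest p. Rps29 stood at 13.69, 13.86, 13.94, 14.44 and 13.96 in the soy arrays 147, 149, 155, 157 and 159, and at 13.63, 13.83, 13.77, 13.47 and 13.57 in the casein arrays 10, 18, 20, 6 and 7. All soy arrays except soy 147 lay above every casein array. The difference was 0.32 ± 0.13 (SE, n = 5 per diet, limma adjusted p = 0.98), and 0.21 without soy 157. Rps24 stood at 13.31, 13.15, 13.26, 13.77 and 13.43 in the same soy arrays, and at 13.10, 13.14, 13.30, 12.93 and 13.06 in the casein arrays. Soy 149 and soy 155 lay below casein 20, and the difference of 0.28 ± 0.12 (SE, limma adjusted p = 0.98) was 0.18 without soy 157. Rps23, a protein of the decoding centre, averaged 14.03 ± 0.18 in soy and 13.80 ± 0.12 in casein (SD, n = 5 each), a difference of 0.23 ± 0.10 (SE) that was -0.04 under quantile normalization. Rps3a was at 0.28 ± 0.13 (SE).

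Rps6, the substrate of the S6 kinases downstream of mTOR, stood at 13.53, 13.63, 13.52, 14.15 and 13.79 in the soy arrays 147, 149, 155, 157 and 159, and at 13.54, 13.59, 13.67, 13.30 and 13.41 in the casein arrays 10, 18, 20, 6 and 7. Soy 147 and soy 155 lay below 3 of the 5 casein arrays. The difference of 0.23 ± 0.13 (SE, n = 5 per diet, limma adjusted p = 0.98) was 0.12 without soy 157. Rpsa, a ribosomal protein also known as a laminin receptor, was at 0.15 ± 0.11 (SE) at its brightest probe set, 0.06 and 0.27 at 2 others, 0.09 without soy 157 and -0.02 under quantile normalization. Rps15 had one of the widest spreads, from 12.45 in soy 149 to 13.28 in soy 157 among soy arrays and from 12.27 in casein 6 to 12.92 in casein 20 among casein arrays.

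The subunits had similar values by diet. The median difference was 0.19 over 28 large subunit genes and 0.22 over 14 small subunit genes, and 26 and 13 of them were positive. The mean deviation of large subunit genes minus that of small subunit genes was 0.16, -0.11, 0.08, -0.14 and -0.07 in soy 147, 149, 155, 157 and 159, and -0.02, 0.03, -0.01, 0.01 and 0.07 in casein 10, 18, 20, 6 and 7. Soy 147 and soy 155 lay above the casein range and the other soy arrays below it. Without the dim paralogues Rps27l and Rps4y2, at -0.60 and -0.72 in soy 147, the values were 0.06, -0.04, 0.05, -0.12 and -0.10 in the soy arrays and 0.03, -0.002, -0.01, 0.03 and 0.09 in the casein arrays. No soy array then lay above the casein range, and soy 149, soy 157 and soy 159 lay below it. The balance between subunits averaged -0.02 ± 0.13 in soy and 0.02 ± 0.04 in casein (SD, n = 5 each), a difference of -0.03. The difference was -0.06 without those 2 paralogues, which the filter at the 60th percentile also drops, and turned to 0.05 with no filter, where Rpl3l and Rpl30 enter the large subunit.

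The spread between arrays was close to that of other probe sets. The SD within a diet had a median of 0.19 over the ribosomal protein genes, 0.20 over the 233 other probe sets of the same brightness and 0.23 over all probe sets tested. Of the 42 genes, 34 lay below this last value. The median was 0.18 for large and 0.21 for small subunit genes. The smallest spreads were 0.10 for Rpl7l1, 0.11 for Rplp0, 0.11 for Rpl21, 0.15 for Rpl22, an RNA-binding protein needed for T cell development in mice, and 0.15 for Rps23. A second, dimmer probe set of Rpl7l1 had a spread of 0.22. The widest were 0.72 for Rps27l, 0.42 for Rps4y2, 0.32 for Rpl37a, 0.30 for Rpl13a and 0.28 for Rps15. Without casein 6 and soy 157, the arrays at the extremes, the median spread over the genes was 0.13.

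**Figure D4:**
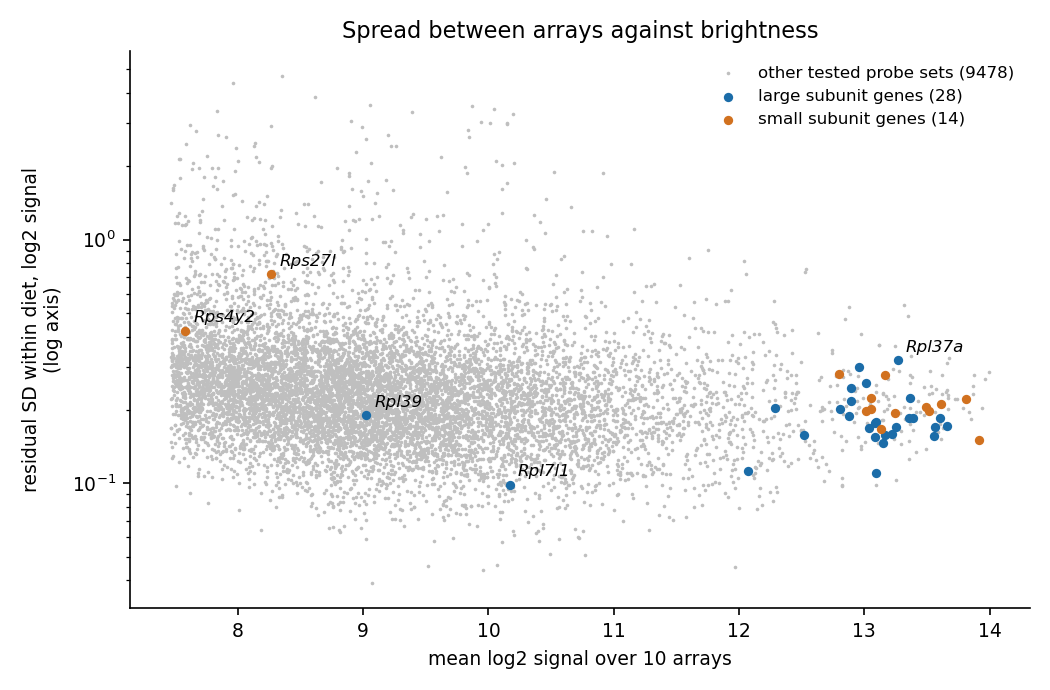
Residual SD of log2 signal within diet (log axis) against the mean log2 signal over 10 arrays, for 28 large subunit genes, 14 small subunit genes and the other tested probe sets. Most ribosomal protein genes sit at the right with an SD near the median of 0.19, while Rps27l at 0.72 and Rps4y2 at 0.42 stand high and Rpl7l1 at 0.10 low.

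In soy 149 the genes did not deviate alike. Deviations from the gene's own mean ran there from -0.61 for Rpl37a, -0.49 for Rpl13a, -0.42 for Rpl18 and -0.41 for Rpl35a to 0.17 for Rpl39 and 1.05 for Rps27l. There, 15 genes, 10 large and 5 small, lay more than 0.2 below their mean, and 18 lay within 0.1 of it, among them Rplp0 at 0.01, Rps6 at 0.02 and Rps29 at 0.05. In casein 6, the other array low in lymphocyte markers, Rplp0 was at -0.16, Rps6 at -0.32, Rps29 at -0.34 and Rpl37a at -0.45.

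Paralogues had other patterns. Rpl3l, the form of Rpl3 known from striated muscle, stood at 7.94, 8.93, 5.92, 9.64 and 3.62 in the soy arrays 147, 149, 155, 157 and 159, and at 3.39, 4.41, 3.52, 10.66 and 3.66 in the casein arrays 10, 18, 20, 6 and 7. Its 4 highest arrays were those with the highest muscle signal, and it was not tested. Rpl3 itself stood at 13.65, 13.50, 13.57, 13.93 and 13.61 in the same soy arrays, and at 13.46, 13.49, 13.64, 13.23 and 13.49 in the casein arrays, lowest in casein 6 where Rpl3l was highest. Rpl7l1, a paralogue of Rpl7, stayed between 10.06 and 10.22 in the soy arrays and between 10.07 and 10.36 in the casein arrays. Its lowest array was soy 157, where Rpl7 was highest, and its difference was -0.02 ± 0.09 (SE, n = 5 per diet, limma adjusted p = 0.999). At a second probe set of Rpl7l1, with a mean of 9.83, soy 157 was not lowest, at 9.74. There soy 149 was lowest, at 9.44, followed by casein 6 at 9.52, and the difference was -0.02 ± 0.13 (SE).

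Rps27l, a paralogue of Rps27 induced by p53 in human cells, stood at 7.66, 9.31, 7.53, 9.46 and 7.83 in the soy arrays 147, 149, 155, 157 and 159, and at 8.22, 7.91, 8.81, 7.99 and 7.91 in the casein arrays 10, 18, 20, 6 and 7. Soy 149, soy 157 and casein 20 were high, and the difference of 0.19 ± 0.39 (SE, limma adjusted p = 0.997) was -0.08 without soy 157. Rps4y2 stood between 6.86 and 8.01 in the soy arrays and between 7.22 and 8.13 in the casein arrays, around the filter, with a difference of -0.10 ± 0.24 (SE) that was 0.07 without soy 147.

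**Figure D5:**
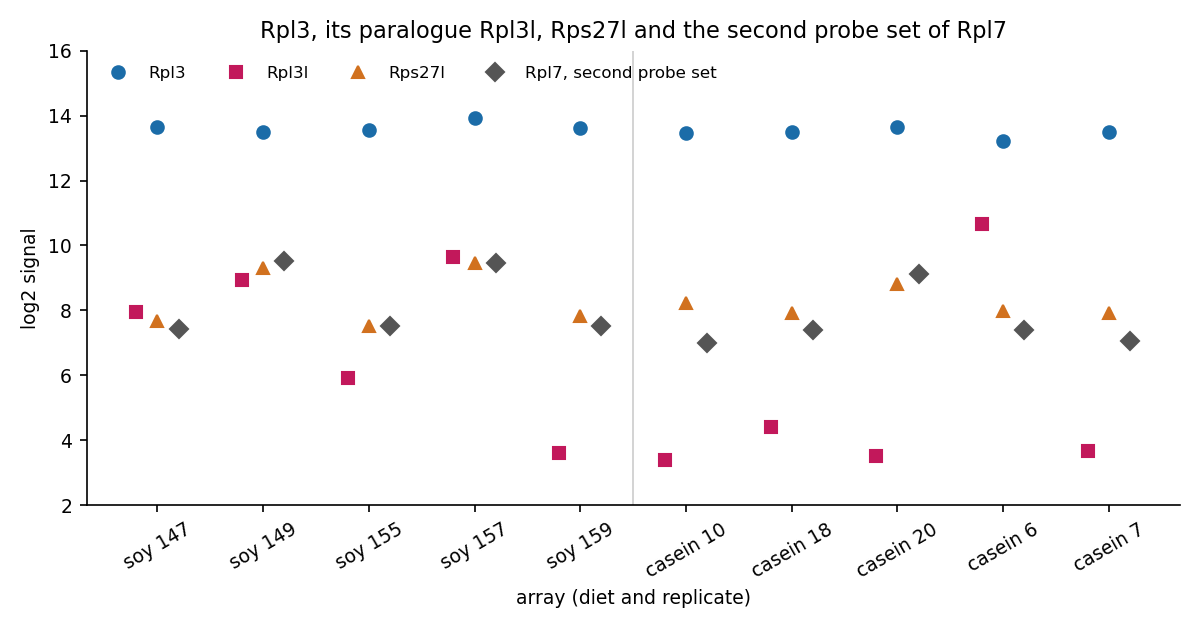
Log2 signal of Rpl3, Rpl3l, Rps27l and the second probe set of Rpl7 in the 5 soy arrays (left) and the 5 casein arrays (right). Rpl3 lies between 13.23 and 13.93 in every array, Rpl3l ranges from 3.39 to 10.66, and Rps27l and the Rpl7 probe set are high in soy 149, soy 157 and casein 20.

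Further probe sets gave the same direction for most, but not all, genes. The 28 probe sets assigned to several ribosomal protein genes or their copies, which name no single gene, all had positive differences, with a median of 0.20 and no adjusted p under 0.05 in limma. Their mean deviation was 0.36 in soy 157 and -0.36 in casein 6. They share sequence with the 44 genes in part, and ribosomal protein genes have many processed copies in the genome, so probe sets of either kind may read more than 1 gene. A second, dimmer probe set of Rps24, with a mean near 8.62, had a difference of -0.26 ± 0.20 (SE, n = 5 per diet, limma adjusted p = 0.98), opposite to the brightest one. Rack1, a ribosomal protein of the small subunit outside the symbol rule, was at 0.11 ± 0.11 (SE), and at -0.02 under quantile normalization, with its lowest signal, 12.66, in casein 6 and its highest, 13.31, in soy 157.

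With the signals as deposited, other genes of protein synthesis had medians closer to 0 than the ribosomal protein genes. Under quantile normalization the order turned for initiation factors, with a median of 0.05, beside 0.01 for the ribosomal protein genes. The lists also differed in brightness, since elongation factors averaged 12.26 in soy and 12.17 in casein, and initiation factors 10.52 and 10.51. As deposited, the 233 other probe sets as bright as the ribosomal protein genes had a median of 0.09. Of 7 elongation factors tested, 6 had a positive difference, with a median of 0.09, but 3 of 7 with a median of -0.01 under quantile normalization. Eef1a1, which brings tRNAs to the ribosome and whose mRNA also carries a TOP element, was at 0.20 ± 0.12 (SE), Eef1g at 0.19 ± 0.10 (SE) and the translocase Eef2 at 0.11 ± 0.10 (SE). Of 32 initiation factors, 21 were positive, with a median of 0.02, and the scaffold Eif4g1 was at -0.24 ± 0.08 (SE), Eif1ax at -0.32 ± 0.13 (SE) and Eif2b1 at 0.22 ± 0.11 (SE). Eif4g1 lay at 10.39 to 10.59 in the soy arrays and 10.61 to 10.82 in the casein arrays, without overlap. It was the only 1 of the 32 initiation factors to do so. Of all probe sets, 0.357% were lower in soy without overlap and 0.798% separated in either direction. In limma 0 genes of these lists had an adjusted p under 0.05, and at an unadjusted p under 0.05 there were 0 of 7 elongation factors and 2 of 32 initiation factors, near the 4.55% of all probe sets.

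Ribosome assembly factors and mitochondrial ribosomal proteins lay near the median of all probe sets. Of 41 assembly and nucleolar factors, 22 were positive and 19 negative, with a median of 0.03. Nucleolin, Ncl, which acts in ribosomal RNA synthesis and processing, stood at 10.50, 10.39, 10.57, 10.52 and 10.58 in the soy arrays 147, 149, 155, 157 and 159, and at 10.99, 11.12, 11.03, 10.46 and 10.86 in the casein arrays 10, 18, 20, 6 and 7. Casein 6 alone lay within the soy range, and the difference was -0.38 ± 0.12 (SE, n = 5 per diet, limma adjusted p = 0.98). The nucleolar GTPase Gnl3 was at 0.17 ± 0.09 (SE) and Wdr3 at -0.40 ± 0.22 (SE). Of 72 mitochondrial ribosomal proteins, 32 were positive and 40 negative, with a median of -0.02, and Mrpl57 was at 0.52 ± 0.21 (SE), Mrpl4 at -0.24 ± 0.10 (SE) and Mrpl1 at -0.32 ± 0.15 (SE). Of 21 genes of mTOR and S6 kinase signalling, 16 were positive, with a median of 0.04. The median of these signalling genes was 0.06 under quantile normalization, above that of the ribosomal protein genes. Among the positive ones were Eif4ebp2, an inhibitor of translation initiation, at 0.21 ± 0.10 (SE), Eif4ebp3 at 0.30 ± 0.16 (SE) and Larp1, which binds TOP elements, at 0.15 ± 0.09 (SE). In these 3 lists 0 genes had an adjusted p under 0.05 in limma, and at an unadjusted p under 0.05 there were 1 of 41 assembly factors, 2 of 72 mitochondrial ribosomal proteins and 0 of 21 signalling genes, where 4.55% of all probe sets were called. The difference between any of these lists and the ribosomal protein genes was not tested.

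Of 15 cell cycle genes tested, 13 had a negative difference, with a median of -0.21. In limma 0 had an adjusted p under 0.05. At an unadjusted p under 0.05, 1 of the 15 was called, lower in soy. Of all probe sets, 2.24% were called in that direction and 4.55% in either. Mcm2, a replication helicase subunit, was at -0.34 ± 0.12 (SE), Aurkb at -0.31 ± 0.16 (SE) and Birc5 at 0.26 ± 0.17 (SE). The list averaged 8.28 in soy 149 and 8.85 to 9.06 in the other soy arrays, and 8.59 in casein 6 and 8.88 to 9.29 in the other casein arrays. The median difference was 0.06 over 15 lymphocyte markers, 2.30 over 15 muscle markers, -0.27 over 6 luminal markers and 0.03 over 11 adipocyte markers (-0.05 under quantile normalization), and 0 of these markers passed in limma. At an unadjusted p under 0.05 only 1 muscle marker was called. It was lower in soy, opposite to the median of its list, where 2.24% of all probe sets were called in that direction.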

How the data were processed

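Total RNA was labelled with biotin and hybridised to 1-colour arrays, 1 per sample, per the labels. The intensity of each probe set is the signal on a linear scale that the authors made with MAS5, per the submitters' processing notes, with version and settings not given in the sources used here. The deposited scaling was kept, since the 2% trimmed mean was 500.1 on every array. Of 15923 probe sets, 57 are controls and were not tested. Among the others, 12783 have 1 gene in the platform annotation, 312 several and 2771 none. Values below a floor of 1 were raised to it before taking log2. The 9520 probe sets at or above the 40th percentile of mean signal (177 on the linear scale) were compared with limma 3.58.1 in R 4.3.3 (eBayes with trend, two-sided tests) and adjusted together by Benjamini-Hochberg. The brightest probe set stood for a gene. Gene IDs of 42 of 44 members were found in the reference table. Promoter sequences are from RefSeq, build GRCr8.

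The members and lists were chosen with earlier results of these data known, so lists are given as counts and medians. Named genes are the 8 members of smallest p, the 5 of widest and 5 of smallest spread, paralogues, members with known further roles, those with probe sets of opposite sign and up to 3 genes of smallest p per other list. Rpl18 and Rpl35a were named after their values were seen. The number of arrays limits the precision: the median SE over the members was 0.12. The steps were tested on simulated data, with independent noise for each probe set and planted differences larger than the median found here. That simulation does not cover a small shift shared between genes. Alternatives were quantile normalization, median centring, other filters, a pseudocount of 16, no trend or no moderation in the variances, weighted arrays, actin 3′ to 5′ ratio as covariate, the mean of probe sets, leaving out paralogues, and leaving out arrays, of which the pair casein 6 and soy 157 was chosen after seeing the data, as was the subunit balance per array without Rps27l and Rps4y2.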

Additional observations from a re-analysis of the deposited data

Results flagged for a closer look

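In 3 of the 48 sets of 5 arrays examined, for the named genes and for 2 averages over genes, 1 array lay far from the others of its diet by Dixon's ratio, the gap to the nearest array over the range. Chance gives about 1 in 20 for a set not chosen by its values. Some genes were named for their wide spread, and all sets come from the same 10 arrays. The counts given here can therefore not be read against that rate. Soy 157 was the high array for Rpl5, at 13.85 with a ratio of 0.796. Casein 6 was the low array for Rpl37a, at 12.82 with a ratio of 0.736. Casein 6 was also the high array for Rpl3l, at 10.66 with a ratio of 0.86. Over all 42 tested genes, 10 of 84 such sets crossed the limit of 0.71.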

How the results depend on the processing

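No ribosomal protein gene had an adjusted p under 0.05 in limma under any of the 23 alternatives that kept this threshold, and 7 did at an unadjusted p under 0.05. Quantile normalization moved the median difference to 0.013 over all members, 0.013 over the large and 0.036 over the small subunit. The median over all members was positive in all 22 alternatives, from 0.013 to 0.258. Without 1 array it ran from 0.124 (soy 157) to 0.258 (soy 149), for the large subunit from 0.121 (soy 157) to 0.256 (soy 149), with 0.126 without casein 6, and for the small subunit from 0.132 (soy 157) to 0.277 (soy 149). The large minus small difference turned to 0.047 with no filter. It ran from -0.075 (soy 147) to -0.0003 (soy 157), with -0.057 without soy 155, -0.019 without soy 159, -0.018 without casein 7 and -0.009 without soy 149. The median spread was 0.099 without casein 6, soy 147, soy 149 and soy 157, 0.129 without casein 6 and soy 157, and 0.146 (soy 157) to 0.202 (casein 10) without 1 array. The causes were not tested. No paired analysis was possible because the diets share no replicate number. No detection calls were used, so how far Rpl3l, Rpl30 and Rps4y2 stood above background is not known here.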

Other observations

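The array also carries a control probe set for 5S ribosomal RNA, the partner of Rpl5 and Rpl11. It stood at 7.39, 7.42, 7.17, 8.23 and 7.64 in soy 147, 149, 155, 157 and 159, and at 7.33, 7.21, 7.76, 7.01 and 7.15 in casein 10, 18, 20, 6 and 7. Its highest and lowest arrays, soy 157 and casein 6, were also those of the ribosomal protein genes. Values of this probe set are a description only.

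A second probe set of Rpl7, with a mean of 7.95, stood at 7.43, 9.53, 7.53, 9.47 and 7.52 in soy 147, 149, 155, 157 and 159, and at 7.01, 7.40, 9.13, 7.39 and 7.06 in casein 10, 18, 20, 6 and 7. Soy 149, soy 157 and casein 20 lay above the other 7 arrays in 136 of 9520 tested probe sets (1.43%), Rps27l among them. This Rpl7 probe set was the only 1 of the 9520 in which these 3 arrays lay over 1 log2 above all others, a pattern looked for after these values were seen. The brightest Rpl7 probe set did not share it.

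Rpl30, not tested for its low signal, stood at 6.52, 7.45, 6.45, 6.99 and 6.84 in soy 147, 149, 155, 157 and 159, and at 5.33, 6.42, 6.32, 6.24 and 6.86 in casein 10, 18, 20, 6 and 7. Soy 149 was highest and casein 10 lowest, and the diets overlapped.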
